A study of Mus musculus with 83 samples.

Results

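Small RNA of mouse embryonic stem cells (ESCs, a cell line labelled E14) was compared 25 days after conditional deletion of *Dnmt1*, which encodes the enzyme that maintains DNA methylation. The comparison held 6 libraries of the 83 in the series, chosen by their titles: 3 of control cells (tagged wild type) and 3 of DNMT1KO cells (Dnmt1 KO below). The labels give E14 as the background strain of all 6, whereas the study's methods describe the *Dnmt1* loxP/loxP line as C57BL/6, and the sources used here do not settle which holds. The study deleted the floxed gene through Cre recombinase and grew the cells in serum with LIF, with or without feeder cells. Labels name replicates 1 to 3 without saying whether they came from separate cultures, so p-values measure the spread between these libraries, which may be technical. Levels are RPM, reads of 20 to 24 nt scaled to the total of each library, and differences are log2 fold changes on log2(RPM + 1), Dnmt1 KO over control, with their standard error (SE). Calls are features with a limma p under 0.05 after Benjamini-Hochberg adjustment over all features tested.

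DNA methylation is copied to the new strand at each cell division, and DNMT1 does most of this copying. Imprinted loci are expressed mainly from 1 parental allele, in many cases under a control region methylated on a single allele. The largest miRNA clusters of the mouse lie in such loci (Dlk1-Dio3 and *Sfmbt2*), while ESCs are known for the miR-290, miR-302 and miR-17 families, which share related seeds, the bases 2 to 8 of a mature miRNA that pair with its targets.

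The mature sequences of the miRNAs on which the results turn are shown here (RefSeq, GRCm38.p6 annotation) with the seed in capitals. The first set holds abundant miRNAs of the Dlk1-Dio3 region that were higher in Dnmt1 KO, and their seeds all differ.
miR-127-3p: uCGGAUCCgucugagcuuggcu
miR-411-5p: uAGUAGACcguauagcguacg
miR-541-5p: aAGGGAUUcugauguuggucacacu
miR-434-3p: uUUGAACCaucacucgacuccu
miR-410-3p: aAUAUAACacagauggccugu
miR-136-5p: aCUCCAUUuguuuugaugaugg

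The second set holds the 6 features with the seed AAAGUGC, which come from 3 clusters and were all lower.
miR-17-5p: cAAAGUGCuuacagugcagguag
miR-20a-5p: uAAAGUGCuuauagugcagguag
miR-20b-5p: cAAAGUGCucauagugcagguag
miR-93-5p: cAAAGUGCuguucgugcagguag
miR-106a-5p: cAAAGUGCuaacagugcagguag
miR-106b-5p: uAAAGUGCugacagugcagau

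The third set holds the miR-200 family, also lower, which carries a pair of related seeds.
miR-200b-3p: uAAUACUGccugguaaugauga
miR-200c-3p: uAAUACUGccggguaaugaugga
miR-429-3p: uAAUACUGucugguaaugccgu
miR-141-3p: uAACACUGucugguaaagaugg
miR-200a-3p: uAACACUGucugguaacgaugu

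The fourth set holds the pair with the highest levels among X-linked miRNAs that were higher.
miR-470-5p: uUCUUGGAcuggcacuggugagu
miR-871-3p: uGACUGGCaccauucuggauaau

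Features are hairpin genes, so the values below do not tell which arm was read. The arm shown is the one that carries the shared seed, or one of the arms where none is shared. The listed miR-541-5p has 25 bases, longer than the reads kept, and 39 of the 246 miRNA features looked up had no entry.

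Depth was 521066 to 815523 reads per control library and 527678 to 780784 reads per Dnmt1 KO library, lower than in all libraries of days 1 to 11 (870481 to 6239008). Over miRNA features, control replicate 3 differed from the other controls by a chi-square per degree of freedom of 23.2 and 23.7, against 2.28 between those, and results that turn on it are also given without it. The *Dnmt1* feature itself held few small RNA reads, with 95, 74.8 and 51.5 RPM in control and 64.3, 43.5 and 45.5 RPM in Dnmt1 KO. The groups overlapped (difference −22.7 RPM, exact permutation test, two-sided, p = 0.20, smallest possible 0.10). This value cannot check the deletion, because the labels do not say which part of the gene was removed. ESC markers of the miR-290 cluster made up 19.6% of control reads and 13.8% of Dnmt1 KO reads. Muscle and liver marker miRNAs had no read and neural ones stayed at or below 5.69 RPM in every library. Blood markers were present, at 0.0999% of control reads and 0.0773% of Dnmt1 KO reads, as were fibroblast markers, at 0.0996% and 0.126%.

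Of 1919 features with at least 10 RPM in 3 libraries, 403 were called (21.0%), 220 higher (11.5%) and 183 lower (9.54%) in Dnmt1 KO. The groups did not overlap in 697 features (36.3%). In such bulk libraries fewer cells of a type and less RNA per cell cannot be told apart. Among miRNAs, 137 of 244 were called, 68 higher and 69 lower. The higher ones were mostly of 1 region: all 44 tested miRNAs of Dlk1-Dio3 were higher. Of these 44, 37 had 3 reads or fewer in each control library, which fixed their direction. Outside the region 24 miRNAs were higher and 69 lower of 200 tested, with a median of −0.36 beside 0.02 for all features. Part of this split rests on the scaling. With library totals in place of TMM factors the median of all features moved to −0.12, and 155 of 402 calls were higher (38.6%, against 54.6%).

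**Figure D1:**
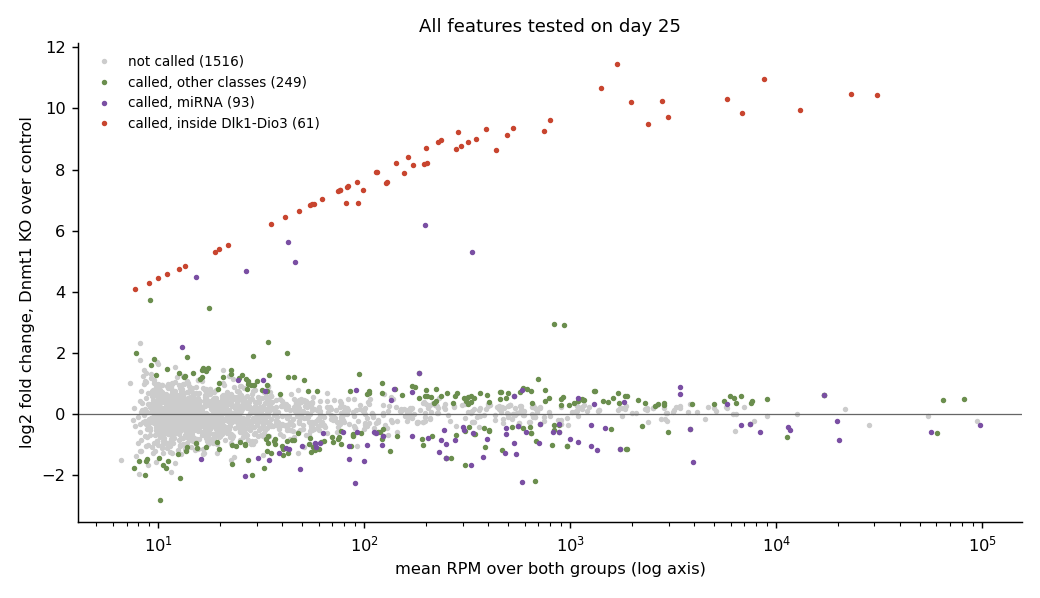
Log2 fold change (Dnmt1 KO over control, vertical axis) against mean RPM of both groups (log axis) for the 1919 features tested on day 25, colored by call. The 61 features inside Dlk1-Dio3 all lie above 4, where only 6 X-linked miRNAs join them.

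The Dlk1-Dio3 region of chromosome 12 held the largest changes among the features tested. Its protein-coding genes are expressed from the paternal allele and its noncoding transcripts, with the miRNAs and snoRNAs they carry, from the maternal allele. The region held 88 features, 73 of them with reads and 61 tested, and all 61 were higher in Dnmt1 KO. They ran from *Meg3* at 88.2 kb to a miRNA at 295 kb from the start of *Dlk1* (position 110691033, NCBIM37). At the edges, *Dlk1* itself had 1 read in 6 libraries. *Mir1247* beside *Dio3*, with 7.17, 5.76 and 4.90 RPM in control and 11.25, 7.68 and 13.3 RPM in Dnmt1 KO, did not reach the minimum.

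Of 57 miRNA features in the region, 49 had reads and 44 were tested. In control their mean levels lay between 0 and 37.4 RPM, and 20 of the 44 had no read in any control library. In Dnmt1 KO they lay between 22 and 46002 RPM (median 329 RPM). The median log2 difference was 8.19, and 6.05 when the 37 members at the floor in control (3 reads or fewer in each library) were set to 3 reads per control library, a floor that covers counting error only. The 20 without a control read were at least 4.46-fold to at least 115-fold higher. Members at the floor passed the minimum through the Dnmt1 KO libraries alone and could only come out higher, so their count and median describe the filter as well as the cells. Of the 13 features not tested, 8 had no read, and the others stayed at or below 22.5 RPM in every library.

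*Mir127* (chromosome 12, 110831042 to 110831138), the most abundant member, had 53.8, 19.2 and 39.2 RPM in control and 45704, 46923 and 45378 RPM in Dnmt1 KO (log2 10.48, SE 0.28, adjusted p = 4.13e-10). *Mir411* had 14.3, 3.84 and 11 RPM in control and 19018, 15516 and 17507 RPM in Dnmt1 KO (10.95, adjusted p = 1.06e-09). *Mir541* had 12.5, 13.4 and 20.8 RPM in control and 14129, 13889 and 12962 RPM in Dnmt1 KO (9.86, adjusted p = 7.39e-12, the smallest of any miRNA). No control library of these 3 came near a Dnmt1 KO library.

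*Mir434* had 10.8, 17.3 and 3.68 RPM in control and 12050, 10623 and 11789 RPM in Dnmt1 KO (log2 10.29). *Mir410* had 8.96, 3.84 and 8.58 RPM in control and 5839, 6232 and 5843 RPM in Dnmt1 KO (9.73). *Mir381* had 7.17, 3.84 and 8.58 RPM in control and 5009, 4907 and 4313 RPM in Dnmt1 KO (9.49). Control libraries thus held a few reads of these abundant members.

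Other members were at the floor in control. *Mir136* had 0, 0 and 1.23 RPM in control and 3464, 3386 and 3273 RPM in Dnmt1 KO. Its 1 control read against 6526 reads gave a ratio of 6404 (exact 95% counting interval 1149 to 252976). *Mir300* gave 2645 (732 to 21846) from 2 control reads and *Mir341* 955 (326 to 4633) from 3. *Mir323*, *Mir379* and *Mir369* had no control read and reached 567, 473 and 455 RPM in Dnmt1 KO on average, at least 115-fold, 95.8-fold and 92.2-fold higher.

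The snoRNAs of the region belong mostly to the SNORD113 group, C/D box RNAs made from introns of the noncoding transcripts. Of 23 features, 17 had reads and 13 were tested, all at the floor in control (median log2 7.46). They passed the minimum through Dnmt1 KO alone, which fixed their direction. *AF357355*, inside *Rian*, had no read in control and 313, 323 and 339 RPM in Dnmt1 KO, at least 65.8-fold higher. The SNORD113 copy at 110923172 to 110923244 had 0, 1.92 and 1.23 RPM in control and 741, 980 and 1247 RPM in Dnmt1 KO, a ratio of 924 (256 to 7638) from 2 control reads. Copies are similar in sequence, so reads may be split between them.

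The host features other than *Meg3* changed largely through the small RNAs inside them. *Rtl1*, a retrotransposon-derived gene, held 66.3, 36.5 and 47.8 RPM in control and 62281, 61935 and 61483 RPM in Dnmt1 KO, but its reads lay almost wholly in the 5 miRNAs with reads inside it (*Mir127*, *Mir136*, *Mir431*, *Mir433* and *Mir434*), which are annotated on the opposite strand. Outside them *Rtl1* held no read in control and 0.632 ± 1.09 RPM in Dnmt1 KO, so a change of the host transcript itself was not seen. For *Mirg*, a noncoding miRNA host, 99.9% lay in 9 miRNAs. *Rian*, a noncoding host of snoRNAs, had 3.59, 1.92 and 2.45 RPM in control and 3943, 3920 and 3902 RPM in Dnmt1 KO, a ratio of 1486 (637 to 4579) from 5 control reads. Of its Dnmt1 KO reads 86.9% lay in small RNA features, which left 512 ± 1.26 RPM (SD, n = 3) elsewhere in the gene, against 0.598 ± 1.04 RPM in control. *Meg3*, the first noncoding transcript of the region, had no control read and 32.2, 25.6 and 22.7 RPM in Dnmt1 KO, at least 5.43-fold higher.

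**Figure D2:**
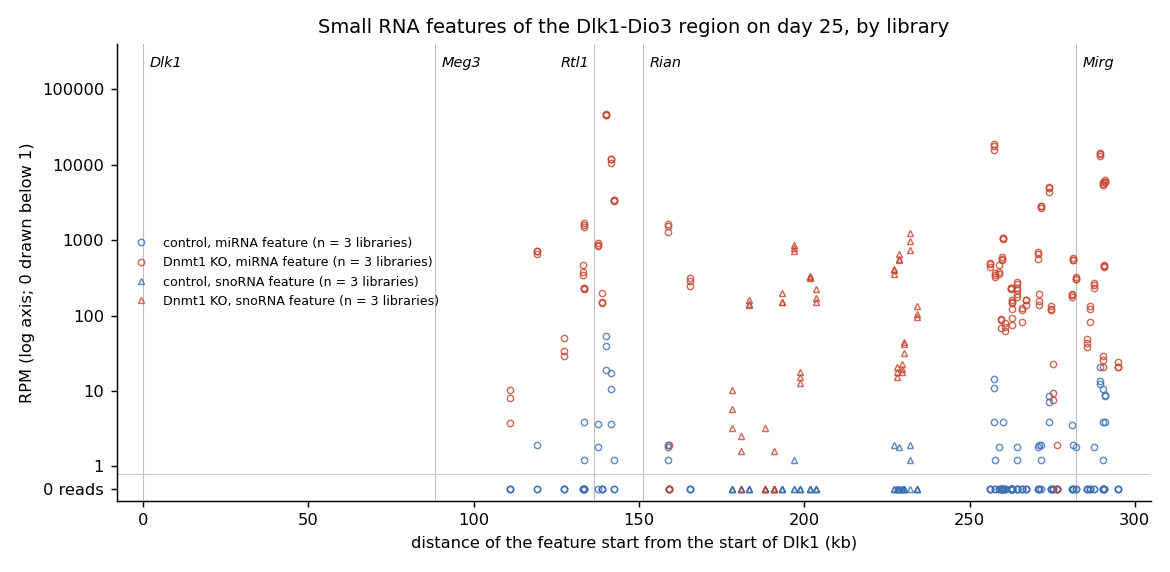
RPM of each library (log axis, libraries without a read drawn below 1) for the miRNA and snoRNA features of Dlk1-Dio3 with reads, by distance of the feature start from the start of Dlk1 in kb, with gene starts as vertical lines. Control libraries lie at or below 53.8 RPM throughout, while tested features in Dnmt1 KO rise to 46923 RPM.

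As a share of all reads, the Dlk1-Dio3 miRNAs made up 0.0113 ± 0.00269% in control and 12.4 ± 0.282% in Dnmt1 KO (SD, n = 3 each). The Dnmt1 KO share had been 8.82 ± 0.703% on day 11, whereas control cells had held 0.620 ± 0.0321% then and 0.411 to 1.12% over days 1 to 11. An interaction term over the 36 time course libraries tested whether the effect on day 25 differed from that on day 11, and 529 of 2582 features were called (20.5%). It was higher on day 25 for 43 of 46 Dlk1-Dio3 miRNAs tested (median 3.62) and lower for none. Because 37 of the 44 members tested on day 25 were at the floor in control, the size of this term depends in part on the 1 RPM added. For *Mir127*, Dnmt1 KO stood at 34432 RPM on day 11 and 46002 RPM on day 25, while control stood at 2670 and 37.4 RPM. The wider gap on day 25 thus came with lower control levels more than with higher Dnmt1 KO levels.

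Marker miRNAs of fibroblasts, the feeder cells, fell between these days in both groups, whereas the Dlk1-Dio3 miRNAs fell in control only. The 5 features listed summed to 0.668 to 1.26% of control reads on days 1 to 11 and to 0.0996 ± 0.00488% on day 25. In Dnmt1 KO they summed to 1.06 to 2.22% and to 0.126 ± 0.00244%. *Mir214* averaged 101 RPM (control) and 134 RPM (Dnmt1 KO) on day 11, but stood at 1.79, 0 and 0 RPM and 3.22, 1.28 and 1.90 RPM on day 25. Both *Mir199a* genes were at 0 in every control library of day 25. *Mir143* was called higher in Dnmt1 KO on day 25 (947, 896 and 1009 RPM against 1215, 1262 and 1215 RPM, log2 0.52, SE 0.09). *Mir145*, the only other marker tested, had 37.6, 57.6 and 40.5 RPM against 33.8, 28.2 and 30.3 RPM, lower without overlap but not called (−0.38, adjusted p = 0.284). Within day 25, the summed share of the Dlk1-Dio3 miRNAs differed by a ratio of 1096. That of the feeder markers, mostly *Mir143*, differed by a ratio of 1.27. The part of feeder cells in the change between days, or in the difference within day 25, was not tested.

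A second group of miRNAs that rose lies on the X chromosome, between *Mir743* and *Mir509*, a rapidly evolving region known for expression in testis. Of 20 features 15 had reads and 6 were tested, and all 6 were higher (median log2 5.14, and 4.14 with the 4 members at the control floor set to it). Those 4 passed the minimum through Dnmt1 KO alone, which fixed their direction. With no filter 9 of 15 were called, all higher. Since the whole region took 0.00311% of control reads, members near 0 in control could again only be called higher. *Mir871* had 23.3, 7.68 and 27 RPM in control and 674, 642 and 627 RPM in Dnmt1 KO (5.31, SE 0.35, adjusted p = 6.73e-07). *Mir470* had 8.96, 1.92 and 6.13 RPM in control and 378, 380 and 413 RPM in Dnmt1 KO (6.18, SE 0.37, adjusted p = 3.01e-07). *Mir881*, *Mir463*, *Mir878* and *Mir743b* had 4, 2, 3 and 1 control reads, with ratios of 42.9 (16.5 to 159), 79.5 (21.7 to 662), 32.7 (10.9 to 161) and 58.9 (10.2 to 2364). No tested member had a Dnmt1 KO library within the control range. The region took 0.00311 ± 0.00156% of control reads and 0.135 ± 0.00427% of Dnmt1 KO reads, against 0.0149% and 0.168% on day 11.

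The *Sfmbt2* cluster, a rodent array of repeated miRNA genes in an intron of an imprinted Polycomb gene, went the other way. Of 119 features only 22 had reads and 6 were tested, of which 5 were lower (median log2 −1.46). *Mir467c* had 133, 123 and 126 RPM in control and 30.5, 47.4 and 47.4 RPM in Dnmt1 KO (−1.47, SE 0.21, adjusted p = 0.000577). *Mir467d* had 69.9, 82.5 and 78.5 RPM in control and 24.1, 16.6 and 19 RPM in Dnmt1 KO (−1.77, SE 0.20, adjusted p = 9.83e-05). *Mir669l*, at 26.9, 13.4 and 20.8 RPM against 4.82, 8.97 and 11.4 RPM, did not pass (adjusted p = 0.0906), although the groups did not overlap. Members are near-identical copies, so their reads may be split between genes. The host *Sfmbt2*, with 394, 405 and 387 RPM against 132, 141 and 123 RPM, held 99.5% and 96.5% of its reads in these miRNAs.

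On day 11 the same cluster had stood higher in Dnmt1 KO (0.0403 ± 0.00185% of reads against 0.0203 ± 0.00183%), whereas on day 25 it took 0.0127 ± 0.000847% against 0.0394 ± 0.00118%. The interaction was lower on day 25 for all 8 members tested (median −2.48). For *Mir467c* the means of control and Dnmt1 KO were 49.5 and 99.6 RPM on day 11, and 127 and 41.8 RPM on day 25. Control libraries rose between the days and Dnmt1 KO libraries fell.

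**Figure D3:**
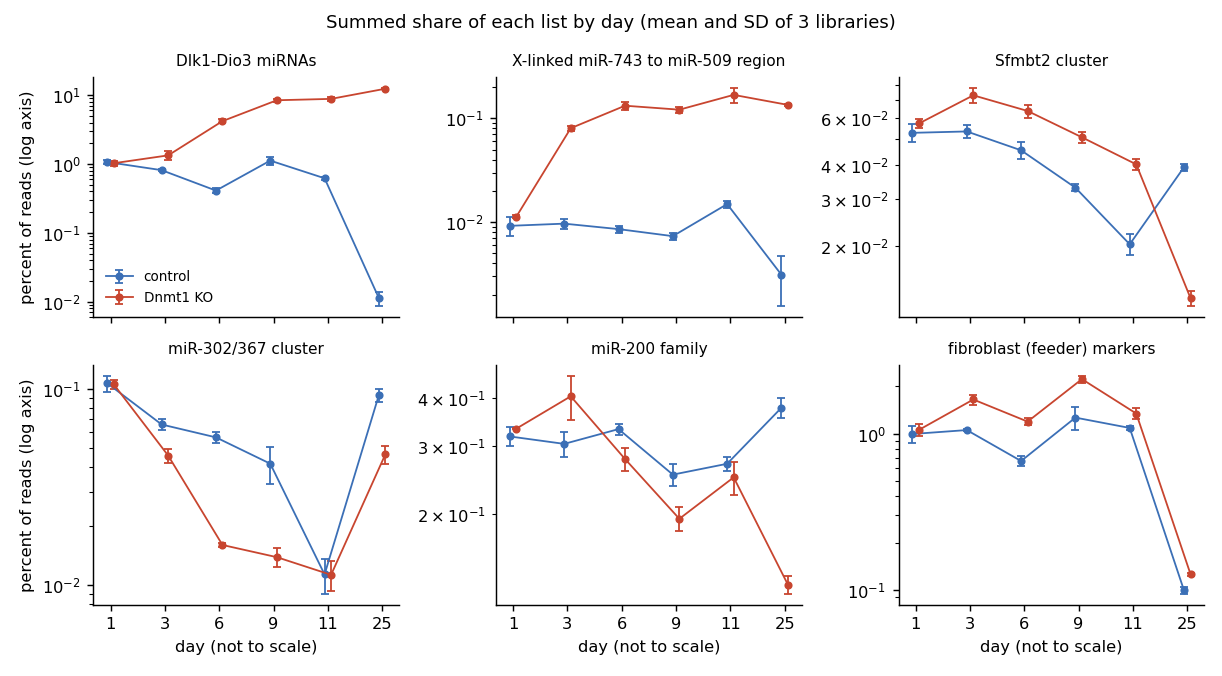
Summed share of all reads (percent, log axis) by day for 6 lists, as the mean and SD of 3 control and 3 Dnmt1 KO libraries. On day 25 the Dlk1-Dio3 miRNAs stood at 0.0113% in control and 12.4% in Dnmt1 KO, the Sfmbt2 cluster had changed sides since day 11, and the feeder markers stood near 0.1% in both groups.

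The ESC families miR-290, miR-302 and miR-17, the miR-183 cluster and the miR-200 family were lower in Dnmt1 KO, though to different degrees. Over 7 lists (the miR-290, miR-302, miR-17-92, miR-106a-363, miR-106b-25 and miR-183 clusters and the miR-200 family), none of the 35 tested members was higher and 26 were lower. Of all features tested 9.54% were lower, and 69 of the 200 tested miRNAs outside Dlk1-Dio3, which include these members. Library totals as the scaling gave larger decreases for all 7 (miR-200 median −1.54, against −1.40). Median-ratio factors and library totals without the Dlk1-Dio3 miRNAs gave smaller decreases for all 7 (miR-200 −1.38 and −1.35).

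The miR-200 family, known for keeping cells epithelial by repressing *Zeb1* and *Zeb2*, fell in all 5 members (median log2 −1.40). Members of both of its genomic clusters fell. From the chromosome 6 pair, *Mir141* had 954, 961 and 1004 RPM in control and 164, 207 and 199 RPM in Dnmt1 KO (−2.21, SE 0.13, adjusted p = 1.94e-07), and *Mir200c* had 136.3, 163 and 146 RPM against 35.4, 44.8 and 13.3 RPM (−2.23, SE 0.36). From the chromosome 4 group, *Mir429* had 575, 560 and 549 RPM against 215, 172 and 193 RPM (−1.40, SE 0.11), *Mir200a* fell by 1.23 and *Mir200b* by 1.04. The family took 0.377 ± 0.0230% of control reads and 0.132 ± 0.00695% of Dnmt1 KO reads, against 0.270 ± 0.0107% and 0.249 ± 0.0244% on day 11. The interaction was lower on day 25 for all 5 members (median −1.40).

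The 3 clusters of the miR-17 family, which promote proliferation in many cell types, fell in 13 of 15 members. Mature miRNAs with the seed AAAGUGC come from 6 features, and all 6 were lower (median −1.22, range −1.65 to −0.57). *Mir93*, inside *Mcm7*, had 5694, 6143 and 6306 RPM in control and 1821, 1931 and 1787 RPM in Dnmt1 KO (−1.57, SE 0.08, adjusted p = 9.55e-08). Its neighbours *Mir106b* (−0.57) and *Mir25* (−0.35) in the same cluster fell less. On the X chromosome *Mir106a* had 507, 562 and 471 RPM against 143, 169 and 131 RPM (−1.65), *Mir20b* fell by 1.26, and *Mir363* fell by 0.82.

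In the miR-17-92 cluster on chromosome 14, *Mir17* had 1895, 1979 and 1877 RPM in control and 688, 836 and 777 RPM in Dnmt1 KO (−1.18, SE 0.11). *Mir18* fell by 1.29, *Mir19a* by 0.95 and *Mir20a* by 0.89. *Mir92-1*, by far the most abundant with 70777 and 42681 RPM on average, fell by 0.59. *Mir19b-1*, with 61.0, 72.9 and 60.1 RPM against 28.9, 56.4 and 64.4 RPM, overlapped between the groups and did not pass (−0.30, adjusted p = 0.529).

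The mature miR-92a can come from *Mir92-1* or *Mir92-2* of the X chromosome, whose reads may be split. Of 7 features with its seed AUUGCAC, 4 were lower and 1 higher. The exception was *Mir92b* of chromosome 3, with 2487, 2844 and 3069 RPM in control and 4226, 3908 and 3811 RPM in Dnmt1 KO (0.66, SE 0.08, adjusted p = 0.000223). Members of 1 seed therefore moved in both directions. *Mir32* and *Mir367* of this seed were not called.

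The miR-290 cluster took 19.6 ± 1.81% of control reads and 13.8 ± 0.282% of Dnmt1 KO reads, without overlap of the groups. All 7 members were tested and 3 were lower, *Mir291a* (−0.53), *Mir295* (−0.36) and *Mir293* (−0.22). *Mir295* had 116026, 118826 and 106576 RPM in control and 81998, 78763 and 80377 RPM in Dnmt1 KO (SE 0.09, adjusted p = 0.0147). *Mir293* and *Mir295* lost their calls under several alternatives, including each library of Dnmt1 KO left out. In *Mir294*, with 9480, 10170 and 4256 RPM against 4728, 4900 and 4097 RPM, control replicate 3 stood within the Dnmt1 KO range, and the feature was not called (−0.56, adjusted p = 0.207). Without control replicate 3 it was called (−1.0, limma adjusted p = 7.23e-06), and so were all 7 members (median −0.52, against −0.36). Of the 7, 6 were called with library totals or with at least 10 reads in every library, 7 in the fit of 36 libraries, and none without Dnmt1 KO replicate 1 or without replicate 2, so the number of calls in this cluster rests on single libraries. Of 5 features with the seed AAGUGCU, which the cluster shares with miR-302, 4 were lower.

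In the miR-302 cluster, more abundant in primed than in naive pluripotent cells, 3 of 5 members were lower. *Mir302b* had 170, 190 and 147 RPM in control and 65.9, 87.1 and 73.9 RPM in Dnmt1 KO (−1.01, SE 0.18, adjusted p = 0.00255). *Mir302a* and *Mir302d* both fell by 0.83. The cluster took 0.107% of control reads and 0.105% of Dnmt1 KO reads on day 1, and 0.0566% and 0.0160% on day 6. Its shares were lowest on day 11 in both groups (0.0114% and 0.0113%) and stood at 0.0929% and 0.0465% on day 25. In the miR-183 cluster *Mir183* and *Mir96* were lower (−0.59 and −0.66), while *Mir182*, with 106869, 106294 and 107199 RPM against 88935, 78922 and 79772 RPM, narrowly missed (−0.23, adjusted p = 0.0502).

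**Figure D4:**
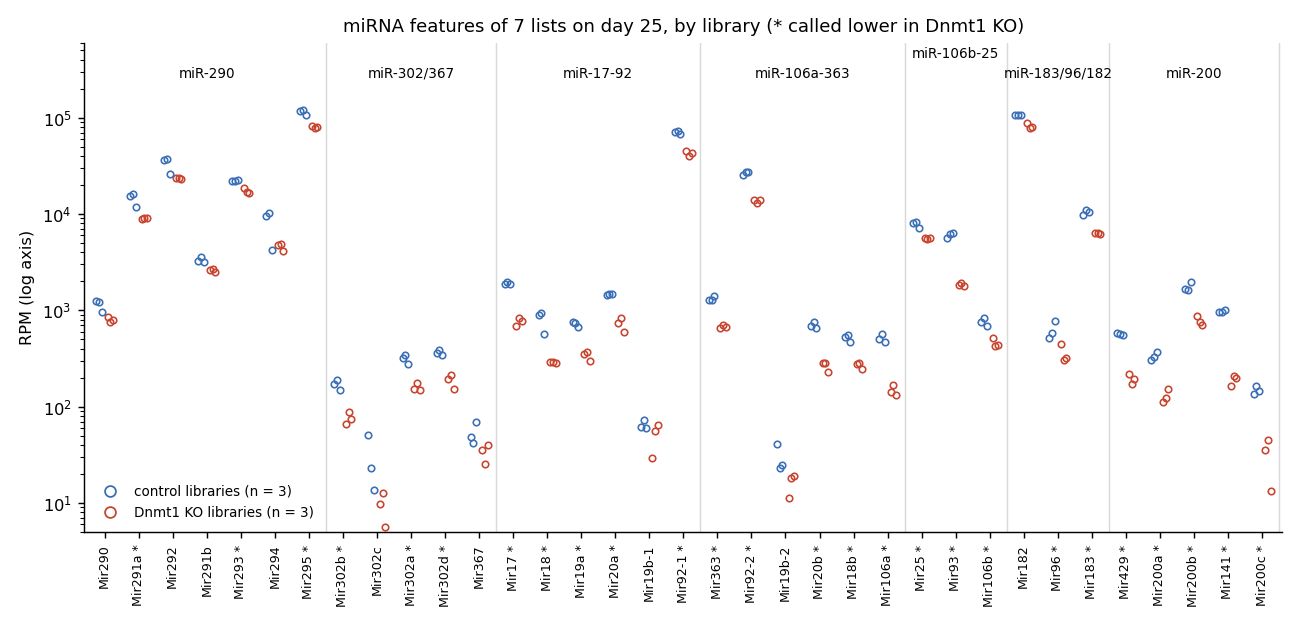
RPM of each of the 6 libraries (log axis) for the members of 7 miRNA lists, with an asterisk on those called lower in Dnmt1 KO. Mir200c and Mir141 lie furthest below control among the called members, and in Mir294 1 control library lies among the Dnmt1 KO libraries.

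The other miRNA lists ranged from no called member to 3 of 4, beside 21.0% of all features. The let-7 family, which rises with differentiation, was rare (14.49 to 23.4 RPM on average in control), and none of 4 tested members was called. Of the miR-30 family only *Mir30a* was called of 6 (2306, 2445 and 2866 RPM against 4352, 4303 and 4182 RPM, log2 0.90, SE 0.08). In the miR-181 family *Mir181c* (0.33) and *Mir181a-2* (1.12) were called higher, and both calls were lost under several alternatives. *Mir22* was higher (13484, 14213 and 14901 RPM against 19008, 21370 and 19628 RPM, 0.64, SE 0.08), whereas *Mir31* (−0.62) and *Mir21* (−0.31) were lower.

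Among miRNAs that lie inside Hox clusters, *Mir10a* had 1341, 1278 and 1405 RPM in control and 646, 601 and 542 RPM in Dnmt1 KO (−1.03, SE 0.09, adjusted p = 1.06e-05), and *Mir10b* had 321, 390 and 406 RPM against 140, 141 and 98.5 RPM (−1.42, SE 0.16). These 2 share the seed ACCCUGU. All reads of the *Hoxb4* feature were those of *Mir10a*, so its change is the same measurement. *Mir196a-2* was higher (1.61) at 3.59, 7.68 and 2.45 RPM against 11.25, 11.5 and 19 RPM, a level of few reads.

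In the miR-23/27/24 clusters *Mir27a* was called higher (0.33) and *Mir23b* lower (−0.70), and in the miR-130 group 3 of 4 were lower. A single member was lower in the miR-99 (*Mir99b*), miR-34/449 (*Mir34b*) and miR-29/148 (*Mir29a*) lists, and 2 of 5 in miR-15/16 (*Mir15b* and *Mir497*). Of miRNAs made without the Microprocessor or Dicer, *Mir877*, a mirtron of *Abcf1*, was lower (−1.04), and *Mir484* and *Mir320* were not called. The calls of *Mir27a*, *Mir99b*, *Mir34b*, *Mir29a*, *Mir15b* and *Mir497* were each lost under at least 1 alternative. Among blood markers *Mir142* was lower (−0.38), *Mir150* was not called and *Mir223* had no read.

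**Figure D5:**
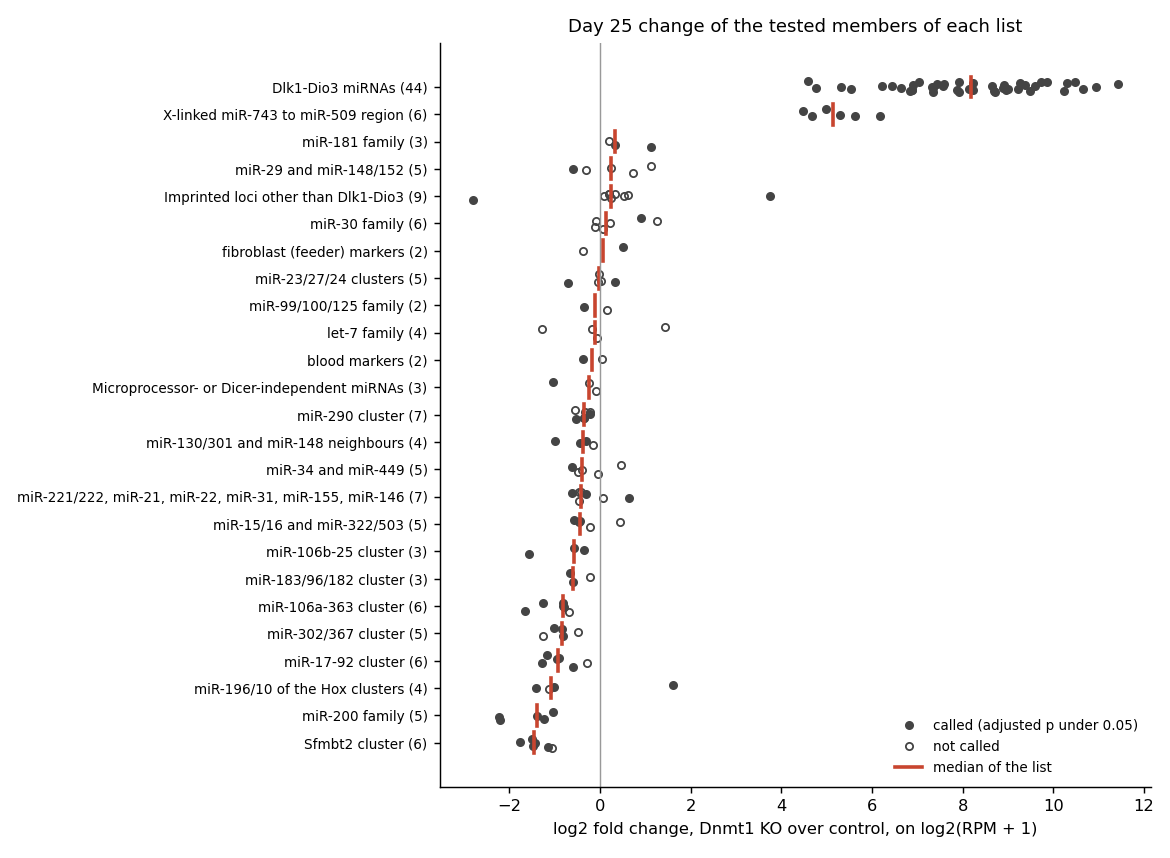
Log2 fold change (Dnmt1 KO over control, on log2(RPM + 1)) of every tested member of each list, ordered by the median of the list, with the number of tested members in parentheses. Filled points were called and open points were not, and the Dlk1-Dio3 and X-linked lists stand apart from the others.

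Of 18 features of other imprinted loci, 9 were tested, and 1 was higher and 1 lower, a share close to that of all features (21.0%). *H19*, a maternally expressed noncoding RNA, had 0, 1.92 and 0 RPM in control and 12.9, 23.1 and 17.1 RPM in Dnmt1 KO, a ratio of 34.3 (5.77 to 1395) from 1 control read, with 15.6 RPM of the Dnmt1 KO mean outside *Mir675*. *Grb10*, a growth inhibitor with tissue-dependent imprinting, had 23.3, 17.3 and 15.9 RPM in control and 1.61, 1.28 and 1.90 RPM in Dnmt1 KO, 1 read in each. It was called lower (adjusted p = 0.000808), with a ratio of control to Dnmt1 KO of 11.9 (exact 95% counting interval 3.75 to 60.4). *Mest* with *Mir335* inside it, *Mir298* and *Mir296* near *Gnas*, *Peg10* and *Igf2r* were not called.

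As a class, miRNAs outside Dlk1-Dio3 took 56.2 ± 1.74% of control reads and 41.5 ± 1.16% of Dnmt1 KO reads (exact permutation test, two-sided, p = 0.10, the smallest possible). With Dlk1-Dio3 included, the shares of miRNA reads were 56.2 ± 1.74% and 53.9 ± 1.44% (p = 0.20, exact). That difference of −2.32 points turned to 3.44 without the 5 most abundant features. It was −8.84 with the Dlk1-Dio3 miRNAs taken out of both the class and the total. The share of snoRNA reads was 18.5 ± 1.35% and 21.4 ± 0.797% (p = 0.10, exact). Adjusted over 11 classes, both values of 0.10 became 0.1375. Since classes share 1 total, the level of one moves the shares of the others.

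Of 197 tested snoRNAs outside Dlk1-Dio3, 39 were higher and 4 lower (median log2 0.20), beside 11.5% higher and 9.54% lower of all features. With library totals, however, 17 of these snoRNAs were higher and 12 lower. Reads of this length from snoRNAs and mRNAs are fragments or processed products. SNORD77 had 452, 487 and 434 RPM in control and 725, 684 and 652 RPM in Dnmt1 KO (0.73, SE 0.10). *Scarna10* was lower (−2.07) at 30.5, 15.4 and 17.2 RPM against 1.61, 2.56 and 9.48 RPM, and SNORD28 was lower (−0.40). *Scarna10* and SNORD28 lie inside host genes, so their reads count for both.

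Protein-coding features are mostly covered sparsely. Of 1338 tested, 95 were lower and 68 higher, smaller shares than the 9.54% and 11.5% of all features. Among those without a miRNA or snoRNA inside, *Ccdc30* had 235, 200 and 278 RPM in control and 1760, 1674 and 1463 RPM in Dnmt1 KO (2.93, SE 0.12, adjusted p = 1.33e-08). Of its reads 88.1% in control and 89.3% in Dnmt1 KO lay in *BX470216.1*, a misc_RNA gene on the other strand, which changed alike (2.95). *Elovl6*, a fatty acid elongase, had 685, 610 and 698 RPM in control and 283, 250 and 271 RPM in Dnmt1 KO (−1.16, SE 0.10). *Gpi1*, a glycolytic enzyme, fell by 1.06 and *Secisbp2*, needed for selenoprotein synthesis, by 1.01. What these reads are was not examined, since the table gives no position within a feature.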

How the data were processed

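RNA was extracted with TriReagent and treated with DNase, libraries were made with an Illumina small RNA kit, and reads of 50 bp were trimmed with Trim Galore 0.3.5 and aligned to NCBIM37 with Bowtie2 2.2.9, per the submitters' processing notes. Per the study's methods, reads of 20 to 24 nt were kept and quantified over annotated features in SeqMonk. Whether counting used strand is not given in the sources used here. The table deposited by the authors holds RPKM values, although described as counts. RPM was computed as RPKM times the feature length in kb, and 100% of low values fell within 5% of a whole read, which gave each depth. At these depths 10 RPM stood for 5.2 to 8.2 reads. The 32101 features overlap, so a read in nested features counts for each.

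Features with at least 10 RPM in 3 of the 6 day 25 libraries were scaled by TMM factors (0.928 to 1.11), transformed as log2(RPM + 1) and tested with limma 3.58.1 (R 4.3.3, trend, two-sided). Because the unit was RPKM, the main test used no count model, and limma-voom on reads recovered from RPM was tried as an alternative. The interaction of day 25 with day 11 used all 36 time course libraries. Replicate numbers did not pair the libraries. Other scalings, filters, pseudocounts, fits and single libraries left out were tried, and the tests were tried on simulated data. At 3 against 3 libraries the smallest exact p is 0.1.

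The members and gene lists were chosen with earlier results of these data known. Features were named by rank or as list members. Ranking used the smallest adjusted p in each direction, among called features without overlap of groups. It took 10 miRNAs, 5 other features that overlap none annotated as miRNA or snoRNA, and 4 snoRNAs or snRNAs. These 5 can still hold a small RNA of another class, as *Ccdc30* does. The 3 most abundant members of each list, the host genes and the 3 strongest interactions in each direction were also named. *H19*, *Grb10*, *Mir92b*, *Mir205*, *Mir204*, *Mir652*, *Mir421*, *Mir296*, *Peg10*, *Igf2r*, SNORD77 and *Ahnak* were named after their values were seen.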

Additional observations from a re-analysis of the deposited data

Results flagged for a closer look

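The effect of Dnmt1 KO differed between day 25 and day 11 in 529 of 2582 features (limma, interaction over 36 libraries, adjusted p under 0.05), and the strongest in each direction are given here. The interaction was 6.67 for *Rtl1* (adjusted p = 1.51e-27), 6.14 for *Rian* (adjusted p = 9.34e-28) and 5.54 for *Mirg* (adjusted p = 1e-26), all hosts in Dlk1-Dio3. On day 11 the *Rtl1* feature averaged 3762 RPM (control) and 46431 RPM (Dnmt1 KO), *Rian* 176 and 2700 RPM, and *Mirg* 978 and 18817 RPM. The effect thus had the same direction on both days and was larger on day 25, although *Rian* held only 5 control reads on day 25.

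In the other direction the interaction was −2.80 for *Mir467d* (adjusted p = 2.2e-14), −2.62 for *Mir467c* (adjusted p = 9.32e-13) and −2.56 for *Sfmbt2* (adjusted p = 6e-19). *Mir467d* averaged 47.8 RPM (control) and 89.9 RPM (Dnmt1 KO) on day 11, and *Sfmbt2* 205 and 407 RPM. Here the direction differed between the days, higher on day 11 and lower on day 25. Feeder marker levels and library depth also differed between these days, and their part in the interaction was not tested.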

How the results depend on the processing

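Of 135 named features that were called, 113 kept their call and direction in every alternative that tested them and none turned. The other 22 lost the call in at least 1: *Mir15b*, *Mir21*, *Mir25*, *Mir27a*, *Mir29a*, *Mir34b*, *Mir96*, *Mir99b*, *Mir130b*, *Mir142*, *Mir143*, *Mir181a-2*, *Mir181c*, *Mir291a*, *Mir293*, *Mir295*, *Mir301*, *Mir497*, *Mir669o*, *Scarna10*, SNORD28 and *AC124005.1*. Depth limits features near 10 RPM, which rest on a few reads, and a nested feature is no separate measurement.

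Against 403 features called, 925 were called with all 36 libraries in 1 fit, and fewer features tested left 156 with miRNAs only and 144 with features that overlap no other. For miRNAs (137) these fits gave 206 and 68 (36 libraries, no overlap), and at least 10 reads in every library gave 88. Inside Dlk1-Dio3 the 36-library fit called 63 of 64 features and the fit with no filter 64 of 73. Against 529 interactions, no filter gave 337, at least 10 reads 281 and limma-voom on reads 318. Leaving out 1 library gave 287 to 450 features, 114 to 155 miRNAs and 414 to 641 interactions, the highest without control replicate 3 for both features and interactions. With the replicate block 371 features, 134 miRNAs and 518 interactions were called, while same-numbered libraries deviated with r of −0.036, −0.032 and 0.014.

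The median log2 difference of the 44 Dlk1-Dio3 miRNAs was 8.10 with library totals. With totals without those miRNAs, added after the data were seen, it was 8.29. It was 9.70 and 6.01 with pseudocounts of 0.25 and 5, 8.46 with voom and 8.07 with thinned reads. A library left out gave 7.96 to 8.28. The median was 7.89 over 49 members with no filter and 7.93 over 46 with 36 libraries. At least 10 reads in every library left 1 member, with 10.46. The median of the X-linked region was 3.104 with no filter (15 members), 5.77 and 3.89 with these pseudocounts and 4.57 with 36 libraries (9 members). That of the *Sfmbt2* cluster was −0.79 with no filter (22 members), −1.65 with at least 10 reads (2 members) and −1.22 with a pseudocount of 5. Library totals gave −0.71 for miR-106b-25, −0.74 for miR-183 and −1.54 for miR-200, 36 libraries gave −0.67 for miR-183, and leaving out a library −0.68 to −0.50 for miR-106b-25. The no-filter, 10-read and 36-library settings changed which members entered a median, and the cause of these shifts was not tested.

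The difference in the miRNA share was −8.84 points with the Dlk1-Dio3 miRNAs taken out of both the class and the total. It turned to 3.44 without the 5 most abundant features. Outside Dlk1-Dio3 it was −12.9 with the sum over features as the total, −8.84 and −8.93, and for snoRNAs 1.40, 5.92 and 1.42, in the same order.

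Features that were not called turned in sign near 0. *Mir27b* gave −0.131 (library totals), −0.0313 (no filter), −0.0115 (10 reads), −0.0607 (36 libraries), −0.00507 (thinned) and −0.0345 to 0.0548 with a library left out. *Mir150* gave −0.110, −0.0112 and −0.0405 (totals, no filter, 36 libraries) and −0.0406 to 0.0908. *Mir30d* gave −0.0866 and −0.0167 (totals, 36 libraries) and *Mir23a* 0.00143 (totals without Dlk1-Dio3 miRNAs) and −0.220 to 0.0591. With a library left out *Mirlet7d* lay at −0.398 to 0.122, *Mir484* at −0.222 to 0.0305 and *Mir19b-1* at −0.547 to 0.0771.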

Other observations

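Among the 96 tested miRNAs that belong to no list, 12 were higher and 24 lower in Dnmt1 KO, beside 11.5% higher and 9.54% lower of all features. *Mir186*, inside *Zranb2*, had 2282, 2556 and 2549 RPM in control and 1032, 900 and 1099 RPM in Dnmt1 KO (log2 −1.14, limma adjusted p = 7.68e-06). The X-linked neighbours *Mir374* and *Mir421* were both lower (−1.54 and −0.95), at 153 and 971 RPM in control and 46.9 and 446 RPM in Dnmt1 KO on average. *Mir652*, also on the X chromosome, had 44.8, 53.7 and 30.7 RPM against 6.43, 6.40 and 15.2 RPM (−2.03). X-linked miRNAs therefore moved in both directions.

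*Mir205*, known for epithelial expression, had 120, 96 and 118 RPM in control and 286, 251 and 237 RPM in Dnmt1 KO (1.35, SE 0.13), the opposite direction to the miR-200 family. *Mir204* was rare in control (5.38, 5.76 and 2.45 RPM) and stood at 20.9, 20.5 and 22.7 RPM in Dnmt1 KO (adjusted p = 0.00254).

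Of 16 snRNAs tested 7 were higher, and of 13 mitochondrial tRNAs 5 were higher, with none lower in either class, beside 11.5% of all features higher. With library totals 3 snRNAs and 1 mitochondrial tRNA were higher. In *Ahnak*, a very large cytoskeletal protein gene, fragments stood at 21.5, 19.2 and 12.3 RPM in control and 75.6, 62.8 and 60.6 RPM in Dnmt1 KO (2.02).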
